A study of Macaca mulatta with 24 samples.

Results

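Toll-like receptors are the germline-encoded receptors by which blood leukocytes sense microbial molecules and some molecules released from damaged cells. The 10 primate genes TLR1 to TLR10 were measured here in whole blood of rhesus macaques before and after 4 Gy total body irradiation. Members were taken by gene name: every non-control probe of the array that carries one of these 10 names, which gave 13 probes of 43603. The list of names was drawn up with earlier results of these data known. All 10 genes had a probe, TLR4 had 3 and TLR9 had 2. Probes that the scanner software called well above background on 4 or more of the 24 arrays were tested, and 11 of the 13, of 9 genes, qualified.

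Globin-depleted PAXgene RNA from blood of animals of Chinese origin was hybridized to 24 one-colour (Cy3) Agilent rhesus arrays. There were 7 pre-irradiation arrays at 0 Gy (animals 1 to 7, of which 4 were male and 3 female), 4 at day 3 (animals 1, 2, 4 and 7), 6 at day 5 (all but animal 5) and 7 at day 7, and all post-irradiation animals had received 4 Gy. The labels place the first sample at day 0 and name X-rays, where the paper names 60Co gamma rays. Each post-irradiation blood sample came from an animal that had also given a pre-irradiation sample, and the arrays analysed here hold no unirradiated animal at these days, so that in these array data time and repeated bleeding cannot be told apart from irradiation.

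All receptors of this family recognise ligand through leucine-rich repeats and signal through a cytoplasmic TIR domain that recruits adaptors such as MYD88 or TICAM1 (TRIF), which lead to NF-kB, AP-1 and interferon regulatory factors. TLR1, TLR2, TLR4, TLR5, TLR6 and TLR10 act mainly at the cell surface, while TLR3, TLR7, TLR8 and TLR9 sense nucleic acids in endosomes. In primate blood, neutrophils and monocytes carry most of the surface receptors, and TLR9 and TLR10 are known from B cells and plasmacytoid dendritic cells.

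The probes are 60 bases long, and what each one can tell apart decides how its values may be read. TLR1 and TLR6 are close relatives, so their probes are shown with the 38 of 46 aligned bases that agree in capitals, and the longest run they share is 13 bases. The TLR2, TLR5, TLR9 and TLR10 probes are shown in lower case because the changes described below rest on them. All are copied from the deposited scanner output, 5′ to 3′.
TLR1: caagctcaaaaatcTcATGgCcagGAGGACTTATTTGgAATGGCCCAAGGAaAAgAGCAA
TLR6: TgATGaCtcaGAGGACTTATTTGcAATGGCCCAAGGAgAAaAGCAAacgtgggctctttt
TLR2: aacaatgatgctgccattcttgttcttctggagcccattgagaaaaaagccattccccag
TLR5: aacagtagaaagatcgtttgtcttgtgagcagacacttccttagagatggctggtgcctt
TLR9 probe 1: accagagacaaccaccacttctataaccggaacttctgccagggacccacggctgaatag
TLR10: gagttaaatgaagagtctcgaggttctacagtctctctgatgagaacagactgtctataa
No other probe of the array shared a run of 20 bases, on either strand, with a TLR probe. Cross-hybridisation of TLR1 and TLR6 transcripts at shorter matches was not tested.

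Coordinates are those of the scanner output, whose header names build rheMac2, and they could not be checked against a genome here. TLR10 (chr5:33755566-33755625), TLR1 (chr5:33780211-33780270) and TLR6 (chr5:33809302-33809361) lie on the minus strand of chromosome 5, with 24.6 kb between the TLR10 and TLR1 probes and 29.1 kb between those of TLR1 and TLR6. TLR2 (chr5:145912738-145912797) and TLR3 (chr5:178209493-178209552) lie on the plus strand of the same chromosome. The X chromosome holds TLR7 (chrX:10586356-10586415) and TLR8 (chrX:10619993-10620052), 33.6 kb apart. TLR5 is at chr1:147143667-147143726 and TLR9 probe 1 at chr2:84173122-84173181, with TLR9 probe 2 starting 291 bases before it. The TLR4 probes lie within 3179 bases of each other on chromosome 15, and probe 3 (chr15:18361505-18361564) is the farthest 3′ on the minus strand. Exon and coding annotation of the probe sites was not analysed here.

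Over the whole array, 48.3 to 61.2% of probes were well above background on an array. The arrays were scanned in 2 sessions. Session 1 held 6 pre-irradiation and 6 day 7 arrays, and session 2 held all arrays of day 3 and day 5, with 1 pre-irradiation and 1 day 7 array, both of animal 5. The comparisons of day 3 and day 5 with pre-irradiation therefore rest, within a session, on that 1 pre-irradiation array. The number of arrays limits the precision.

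After irradiation the family split by gene, not as a block. At day 5, TLR1, TLR2, TLR5, TLR6 and probe 3 of TLR4 were higher than before irradiation, by 2.43- to 3.55-fold, while of the members tested only TLR9 and TLR10 had estimates below 0, on each of the 3 days. TLR9 was lower at day 3 and day 7, by 4.0- and 3.47-fold, and TLR10 at day 7 by 2.37-fold. A probe counted as changed at a limma adjusted p (Benjamini-Hochberg, over all probes tested) under 0.005. In these terms 1 of 11 TLR probes changed at day 3 (lower), 5 of 11 at day 5 (all higher) and 3 of 11 at day 7 (1 higher, 2 lower). Among all probes tested, 13.5%, 16.7% and 10.9% passed on these 3 days. The 11 TLR probes include 3 of TLR4, and a difference between their share and that of the array was not tested. By direction, 5.44% of all probes rose and 8.02% fell at day 3, 7.16% rose and 9.58% fell at day 5, and 3.6% rose and 7.27% fell at day 7. The 11 TLR probes had a median log2 change of 1.08, 1.28 and 0.56 in day order, beside 0.02 over all probes on each day.

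**Figure D1:**
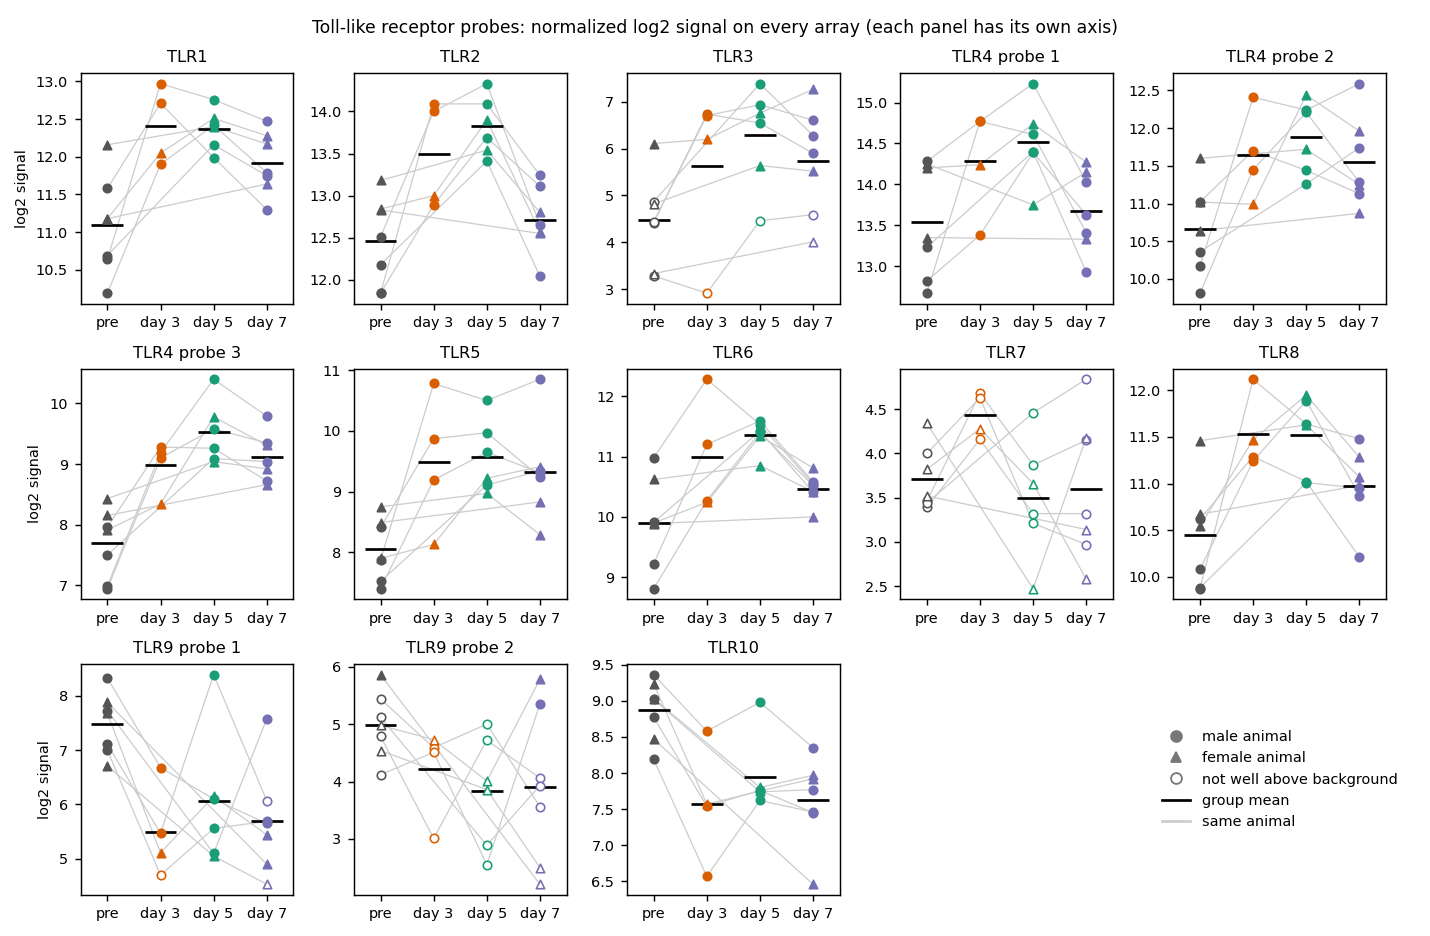
Normalized log2 signal (y axis, own range per panel) of the 13 TLR probes on each of the 24 arrays, by group on the x axis (pre-irradiation n = 7, day 3 n = 4, day 5 n = 6, day 7 n = 7). Circles are males, triangles females, open symbols arrays on which the probe was not well above background, black bars group means, and grey lines join samples of 1 animal. TLR2, TLR4 probe 3 and TLR5 at day 5 sit above all 7 pre-irradiation arrays, as 5.66% of all probes tested do. TLR9 probe 1 at day 3 sits below them, as 12.3% do, and TLR7 is open throughout.

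**Figure D2:**
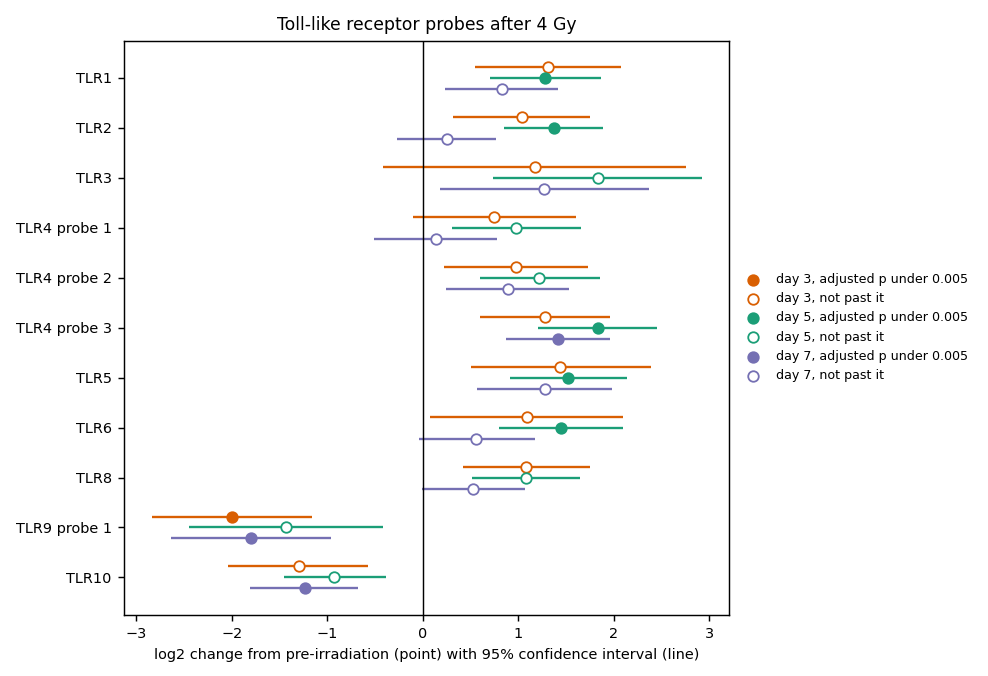
Log2 change from pre-irradiation (x axis) of the 11 TLR probes tested, with the 95% confidence interval of each limma fit as a line, at day 3, day 5 and day 7. Filled points passed an adjusted p under 0.005. On all 3 days TLR9 probe 1 and TLR10 lie to the left of 0 and the other 9 probes to the right, and 5 points are filled at day 5, 3 at day 7 and 1 at day 3.

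These calls moved with 1 alternative, which changed the background correction and added an offset of 50 before scaling. These steps were not tested apart. With normexp correction of the raw signal in place of the scanner software's processed signal, every TLR probe kept its direction on each day and none passed the threshold. The log2 change of TLR9 probe 1 was then −0.77 at day 3 and −0.67 at day 7, in place of −2.0 and −1.80, and that of TLR10 at day 7 was −0.60 in place of −1.24. At day 5 the values with normexp were 0.63 for TLR1, 0.79 for TLR2, 0.91 for TLR5, 0.85 for TLR6 and 1.01 for TLR4 probe 3, and at day 7 TLR4 probe 3 gave 1.03. Over the whole array 0.512%, 0.881% and 1.16% of probes then passed at day 3, day 5 and day 7. A fit with scan session as a block also left no TLR probe past the threshold at day 3 or day 5, and gave TLR9 probe 1 a day 3 change of −2.39 (limma adjusted p = 0.0867). With all 4 groups in 1 fit, TLR9 probe 1 missed the threshold at day 3 (−2.0, adjusted p = 0.008), and TLR1 (1.31, adjusted p = 0.0019) and TLR4 probe 3 (1.28, adjusted p = 0.00252) passed it as higher. Set against the 1 pre-irradiation array of session 2, the day 5 log2 changes were 1.19 for TLR1, 1.0 for TLR2, 1.08 for TLR5, 1.46 for TLR6 and 1.38 for TLR4 probe 3.

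TLR2 is the shared partner of the lipoprotein receptors and pairs with TLR1 to bind triacylated and with TLR6 to bind diacylated bacterial lipoproteins. TLR2 log2 signals ran from 11.84 to 13.18 before irradiation (median 12.51, n = 7) and from 13.41 to 14.33 at day 5 (median 13.80, n = 6). On day 3 the 4 arrays read 14.09, 12.89, 14.00 and 13.00 in animals 1, 2, 4 and 7. At day 7 the range was 12.04 to 13.24 (median 12.65, n = 7). Every day 5 array thus lay above every pre-irradiation array, which held for 5.66% of all probes tested. At day 7, 1 of 7 arrays (animal 1, 13.24) lay above every pre-irradiation array. TLR2 rose at day 5 by 1.37 (SE 0.24, limma adjusted p = 0.000784), and its log2 changes of 1.04 at day 3 (adjusted p = 0.0285) and 0.25 at day 7 (adjusted p = 0.472) did not pass. Within animals TLR2 was higher in 6 of 6 at day 5 and in 3 of 7 at day 7. Without animal 1 the day 5 change was 1.21 (adjusted p = 0.00503).

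TLR1, the partner of TLR2 for triacylated lipoproteins, was also higher at day 5. Its pre-irradiation range was 10.19 to 12.16 (median 11.18, n = 7), and at day 5 it was 11.99 to 12.76 (median 12.41, n = 6). At day 3 the arrays read 12.97, 11.90, 12.71 and 12.05, and at day 7 they spanned 11.30 to 12.47 (median 11.79, n = 7). Animal 6 had the highest pre-irradiation level, and 5 of 6 day 5 arrays exceeded it. TLR1 rose at day 5 by 1.28 (SE 0.27, limma adjusted p = 0.00262). The changes were 1.31 at day 3 (adjusted p = 0.0136) and 0.83 at day 7 (adjusted p = 0.0388). TLR1 was higher than in the same animal's pre-irradiation sample in 4 of 4, 6 of 6 and 6 of 7 animals. With the animal as a block its day 5 adjusted p was 0.0098, and it also missed the threshold without animal 1, 2, 3 or 7 (changes of 1.12 to 1.27). Without animal 6 the day 3 change, 1.49, passed (adjusted p = 0.00428).

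TLR6, the partner of TLR2 for diacylated lipoproteins, ran from 8.81 to 10.98 before irradiation (median 9.90, n = 7) and from 10.85 to 11.59 at day 5 (median 11.41, n = 6). Its day 3 arrays read 11.20, 10.27, 12.28 and 10.24, with the largest SD of the 4 groups, 0.96. At day 7 the arrays lay closer together (mean 10.47 ± 0.25 SD, median 10.52, highest 10.81, n = 7). All day 7 arrays of TLR6 fell below all day 5 arrays, as 1.43% of all probes tested did. The day 5 rise was 1.45 (SE 0.30, limma adjusted p = 0.00236), beside changes of 1.09 at day 3 (adjusted p = 0.0866) and 0.56 at day 7 (adjusted p = 0.154). With the animal as a block the day 5 adjusted p was 0.00987, and the call was lost without animal 1, 2, 3 or 7 (changes of 1.25 to 1.45, adjusted p up to 0.0133).

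TLR10, encoded beside TLR1 and TLR6 and the least understood of this subfamily in its ligands, went the other way. Before irradiation TLR10 ran from 8.19 to 9.36 (median 9.02, n = 7), at day 5 from 7.62 to 8.98 (median 7.75, n = 6) and at day 7 from 6.46 to 8.35 (median 7.77, n = 7). The day 3 arrays read 8.58, 6.57, 7.54 and 7.57. Animal 1 stood highest on each of the 4 occasions, and 6 of 7 day 7 arrays lay below all pre-irradiation arrays. TLR10 fell by 1.24 at day 7 (SE 0.27, limma adjusted p = 0.00322). Its changes were −1.30 at day 3 (adjusted p = 0.0117) and −0.93 at day 5 (adjusted p = 0.0104), and with the animal as a block the day 5 value was −0.99 (adjusted p = 0.00411). TLR10 was lower than before irradiation in 4 of 4, 6 of 6 and 7 of 7 animals. Leaving out animal 1, 2, 3, 4, 6 or 7 took the day 7 adjusted p over the threshold (changes of −1.33 to −1.23, adjusted p up to 0.0119), while leaving out animal 5 did not (−1.11, adjusted p = 0.00388). With no filter on dim probes its adjusted p at day 7 was 0.00574. Within scan session 1 the day 7 change of TLR10 was also −1.11 (adjusted p = 0.00388), since that session lacks only animal 5.

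TLR4, the receptor for bacterial lipopolysaccharide, was measured by 3 probes, of which probe 3 passed the test at day 5 and day 7, probe 2 lay at the threshold at day 5 and probe 1 passed on no day. Probe 3 ran from 6.94 to 8.43 before irradiation (median 7.91, n = 7), from 9.04 to 10.40 at day 5 (median 9.42, n = 6) and from 8.66 to 9.79 at day 7 (median 9.04, n = 7). Its day 3 arrays read 9.10, 9.19, 9.28 and 8.34. At both day 5 and day 7 all arrays of probe 3 lay above all pre-irradiation arrays, as 5.66% and 2.57% of all probes tested did. Probe 3 rose by 1.83 at day 5 (SE 0.29, limma adjusted p = 0.000327) and 1.42 at day 7 (SE 0.26, adjusted p = 0.001), and its day 3 change was 1.28 (adjusted p = 0.00853). It was higher in every animal on every day (4 of 4, 6 of 6 and 7 of 7). The day 5 call held without any 1 animal (adjusted p up to 0.00213). At day 7 it was lost without animal 1 (1.25, adjusted p = 0.00594) or animal 3 (1.4, adjusted p = 0.00504) and with the animal as a block (adjusted p = 0.00792).

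Probe 2 of TLR4 ran from 9.81 to 11.60 before irradiation (median 10.64, n = 7), from 11.26 to 12.44 at day 5 (median 11.96, n = 6) and from 10.87 to 12.59 at day 7 (median 11.28, n = 7). Its day 5 change of 1.22 had an adjusted p of 0.00504, just outside the threshold by limma, and passed without animal 6 (1.41, adjusted p = 0.00331). It also passed with the 75th percentile, quantile normalization, all 4 groups in 1 fit, a filter of every array of 1 group and the deposited matrix values (1.22 to 1.29, adjusted p of 0.0027 to 0.0042). Probe 1 ran from 12.67 to 14.28 before irradiation (median 13.35, n = 7), from 13.75 to 15.23 at day 5 (median 14.51, n = 6) and from 12.93 to 14.27 at day 7 (median 13.63, n = 7). The groups of probe 1 overlapped on every day, although 5 of 6 day 5 arrays lay above all pre-irradiation arrays. Its log2 changes were 0.75 at day 3 (adjusted p = 0.151) and 0.98 at day 5 (adjusted p = 0.0269), so that at day 5 the estimates of all 3 probes lay above 0 with intervals that left out 0. At day 7 the log2 changes were 0.14 for probe 1 (95% confidence interval −0.51 to 0.78), 0.89 for probe 2 (0.24 to 1.53) and 1.42 for probe 3 (0.87 to 1.96), and the difference between probes was not tested. Over the 24 arrays probes 2 and 3 correlated at r = 0.848, probes 1 and 2 at 0.688 and probes 1 and 3 at 0.59.

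TLR5, which binds bacterial flagellin, gave 1 of the wider responses between animals. Before irradiation it ran from 7.40 to 8.75 (median 7.90, n = 7), at day 5 from 8.97 to 10.50 (median 9.43, n = 6) and at day 7 from 8.29 to 10.85 (median 9.31, n = 7). The day 3 arrays read 10.78, 9.19, 9.87 and 8.13. Animal 1 had the highest TLR5 level at day 3, day 5 and day 7. All day 5 arrays lay above all pre-irradiation arrays, as 5.66% of all probes tested did. TLR5 rose at day 5 by 1.52 (SE 0.29, limma adjusted p = 0.00118). The changes were 1.44 at day 3 (adjusted p = 0.023) and 1.28 at day 7 (adjusted p = 0.0103). Within animals the day 7 change ran from −0.46 to 2.98, with 6 of 7 above 0. The day 5 call was lost without animal 1 (1.31, adjusted p = 0.00588) or animal 2 (1.4, adjusted p = 0.00679), and without animal 6 the day 7 change passed (1.57, adjusted p = 0.00338).

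Among the nucleic acid sensors, TLR9, the receptor for unmethylated CpG DNA, fell. TLR9 probe 1 ran from 6.71 to 8.33 before irradiation (median 7.68, n = 7), and its day 3 arrays read 6.68, 5.47, 4.70 and 5.11. At day 5 it ran from 5.05 to 8.39 (median 5.83, n = 6) and at day 7 from 4.53 to 7.58 (median 5.65, n = 7). All 4 day 3 arrays lay below all pre-irradiation arrays, as 12.3% of probes tested did, and 1 of those 4 and 2 of the 7 day 7 arrays were not well above background. TLR9 fell at day 3 and day 7, with log2 changes of −2.0 (SE 0.39, limma adjusted p = 0.00259) and −1.80 (SE 0.39, adjusted p = 0.00382). The day 5 change was −1.43 (adjusted p = 0.029), and animal 2, at 8.39, was the only day 5 sample above its own pre-irradiation level and above all pre-irradiation arrays. Without animal 2 the day 5 change was −1.97 (adjusted p = 0.00107). At day 3 the adjusted p rose over the threshold without animal 2, 3, 4 or 7 (−2.06 to −1.82, adjusted p up to 0.016). The same happened at day 7 without animal 1, 2, 4, 5, 6 or 7 (−1.92 to −1.60, adjusted p up to 0.019) but not without animal 3 (−2.07, adjusted p = 0.000731). The day 7 call of TLR9 was also lost with all 4 groups in 1 fit (adjusted p = 0.0061), with scan session as a block (adjusted p = 0.00514) and with no filter on dim probes (adjusted p = 0.00593). Within session 1, which is the fit without animal 5, the change was −1.60 (adjusted p = 0.0182). TLR9 probe 2, well above background on 3 of 24 arrays, was not tested. Its group means were 4.98 before irradiation and 4.21, 3.84 and 3.91 at day 3, 5 and 7.

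TLR8, a sensor of single-stranded RNA in monocytes and neutrophils, ran from 9.87 to 11.46 before irradiation (median 10.54, n = 7), from 11.01 to 11.95 at day 5 (median 11.64, n = 6) and from 10.21 to 11.48 at day 7 (median 10.98, n = 7). Its day 3 arrays read 12.12, 11.24, 11.29 and 11.47. Animal 6 was highest before irradiation and overlapped the later groups. The log2 changes of TLR8 were 1.08 at day 3 (SE 0.30, limma adjusted p = 0.0169), 1.08 at day 5 (SE 0.27, adjusted p = 0.00648) and 0.53 at day 7 (SE 0.25, adjusted p = 0.134), none past the threshold. Without animal 6 the day 3 and day 5 changes, 1.25 and 1.23, passed (adjusted p of 0.00364 and 0.00298). The day 5 change also passed with quantile normalization, with all 4 groups in 1 fit, with a filter of every array of 1 group and with the deposited matrix values (1.08 to 1.14, adjusted p of 0.00202 to 0.00489). TLR7, its neighbour on the X chromosome and also a single-stranded RNA sensor, was well above background on 0 of 24 arrays and gave no level.

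TLR3, the endosomal receptor for double-stranded RNA, was dim and differed more between animals than any other member tested at day 3. It was well above background on 1 of 7 pre-irradiation arrays, 3 of 4 at day 3, 5 of 6 at day 5 and 5 of 7 at day 7. TLR3 ran from 3.28 to 6.11 before irradiation (median 4.43, n = 7), from 4.46 to 7.39 at day 5 (median 6.66, n = 6) and from 4.01 to 7.27 at day 7 (median 5.90, n = 7). The day 3 arrays read 6.71, 2.91, 6.74 and 6.2. Animals 2 and 5 stood lowest whenever they were sampled, and animal 7 stood highest before irradiation and at day 7. The changes of 1.17 at day 3 (adjusted p = 0.226), 1.83 at day 5 (SE 0.51, adjusted p = 0.0132) and 1.27 at day 7 (SE 0.51, adjusted p = 0.0776) did not pass by limma without a block. With the animal as a block the fitted values were 1.64 at day 5 (adjusted p = 0.00418) and 1.27 at day 7 (adjusted p = 0.00206). These values are set against a pre-irradiation level that was not well above background in 6 of 7 animals, and TLR3 met the filter for testing through the later groups, so their sizes are not firm and no rise is stated from them.

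The days were also compared with each other, which leaves out the shared pre-irradiation arrays. From day 3 to day 5 no TLR probe of 11 passed by limma (0 at an unadjusted p under 0.05), where 0.0184% of all probes did. From day 3 to day 7 none passed (1 at an unadjusted p under 0.05, TLR2), beside 1.28% of all probes. From day 5 to day 7 none passed, beside 0.00368% of all probes. There 5 TLR probes had an unadjusted p under 0.05, and all 11 estimates were below 0. Their median change was −0.46, beside 0.02 over all probes. Shares of all probes by unadjusted p or by sign were not computed between days. The largest changes from day 5 to day 7 were those of TLR2, −1.12 (95% confidence interval −1.58 to −0.66, adjusted p = 0.0259), and TLR6, −0.88 (−1.24 to −0.53, adjusted p = 0.0254). For both genes every day 7 array lay below every day 5 array, as it did for 1.43% of all probes tested. Day 5 lay in scan session 2 and 6 of 7 day 7 arrays in session 1, and the part of the session in these differences was not tested apart from a fit that rests on animal 5 at day 7.

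Responses of males and females at day 7 were compared in the animals with both samples, 4 males and 3 females. No TLR probe had a difference past an adjusted p under 0.05 by limma's interaction term (0.0% of all probes did), and 3 had an unadjusted p under 0.05. TLR5 had log2 changes of 1.89 in males and 0.47 in females (adjusted p of the difference 0.537). TLR2 had 0.67 in males and −0.30 in females (adjusted p = 0.533), and TLR4 probe 3 by 1.88 and 0.80 (adjusted p = 0.528). For the X-linked TLR8 the values were 0.77 and 0.22 (adjusted p = 0.735). All 11 differences, female minus male, were below 0, with a median of −0.75 beside −0.01 over all probes. For 10 of the 11 probes the pre-irradiation mean was higher in females. Shares of all probes by sign or by unadjusted p were not computed for the sexes. The 11 probes are not independent of each other, and 3 of them are of TLR4.

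Across the 24 arrays the signals of many receptors correlated with each other. TLR1 and TLR8 correlated at r = 0.924, TLR1 and TLR4 probe 2 at 0.907 and TLR4 probe 2 and TLR8 at 0.871. TLR1 and TLR6, whose probes share sequence, correlated at 0.838. After the group means were subtracted, the values were 0.845 for TLR1 with TLR8 and 0.70 for TLR1 with TLR6. TLR9 probe 1 correlated negatively with the other 9 probes outside TLR10, down to −0.498 with TLR1, and at 0.592 with TLR10. TLR10 correlated with the 9 probes outside TLR9 at −0.491 to 0.108, and after subtraction of the group means at 0.098 to 0.72, positively with each of them. The highest of these were 0.72 with TLR3, 0.552 with TLR4 probe 2 and 0.539 with TLR1. These are descriptions over arrays that share animals, slides and normalization.

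**Figure D3:**
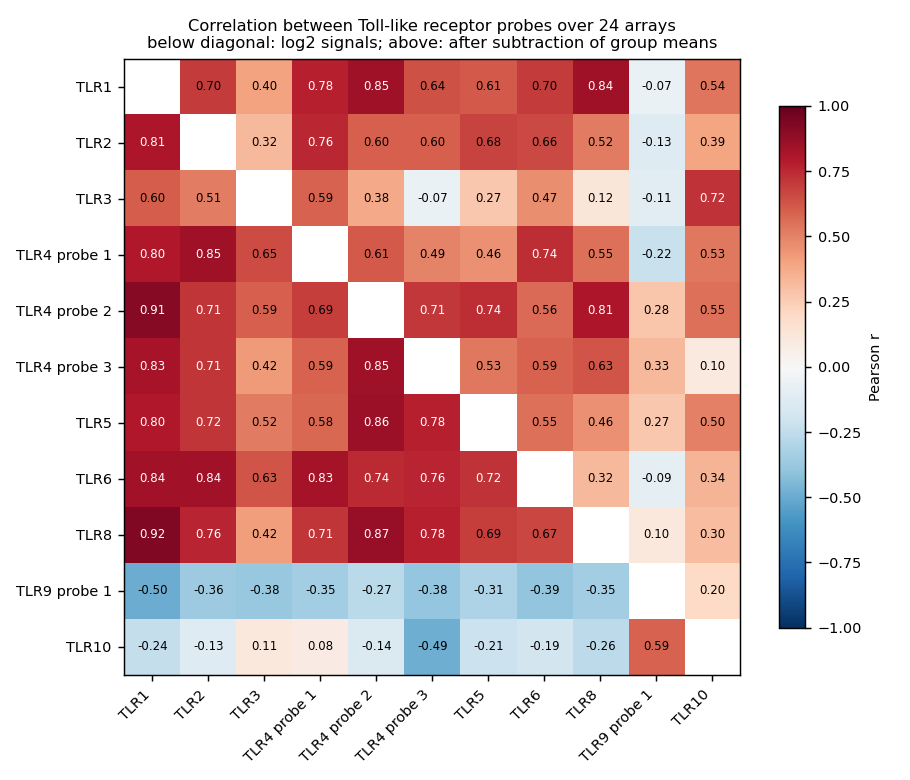
Pearson correlation between the 11 TLR probes tested, over 24 arrays. Cells below the diagonal use log2 signals and cells above it use signals after subtraction of the group means, and colour runs from −1 (blue) to 1 (red). TLR1 with TLR8 is the highest cell below the diagonal at 0.924, and the TLR9 row is negative except with TLR10.

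By the same measure, the genes whose pattern over the 24 arrays lay nearest to each receptor were named from 10658 genes with values on every array. Nearest to TLR1 were SEMA4A (r = 0.955), RP2 (0.945) and BEST1 (0.93). TLR2 lay nearest to ZCCHC6 (0.947), LAMP2 (0.927) and TRAFD1 (0.916), and TLR8 to DGAT2 (0.942), RGS14 (0.929) and SLC11A1 (0.925). For the brightest TLR4 probe these were SAMD9L (0.90), RGS2 (0.895) and SAMD9 (0.886), and for TLR6 they were SAMD9 (0.896), GK (0.894) and ODF3B (0.884). TLR5 was most like CCDC70 (0.904), PGS1 (0.903) and LIMK2 (0.854), and TLR3 most like KLHDC7B (0.877), FAM111A (0.833) and ERO1A (0.826). The nearest genes were less close for TLR9 (DUSP15 at 0.82, ZNF503 at 0.819 and SPRY4 at 0.797) and TLR10 (ISOC2 at 0.792, SETD9 at 0.773 and RSF1 at 0.768).

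Genes that act with the receptors were read from a list by role, each by its brightest tested probe, 84 genes in all of 91 listed symbols with a probe. At day 3, 8 rose and 3 fell (13.1%, beside 13.5% of all genes by the same rule). At day 5, 13 rose and 4 fell (20.2%, beside 15.3%), and at day 7, 1 rose and 2 fell (3.57%, beside 9.85%). Over all genes 5.95%, 6.24% and 2.67% rose and 7.58%, 9.11% and 7.18% fell on these days. The list's median log2 change was 0.34, 0.33 and 0.16. These counts moved with the processing: with normexp 1 of the 84 passed on each day, with scan session as a block none passed at day 3 or day 5, and with the animal as a block 2 passed at day 3. At day 3 the count of 11 was 5 without animal 1 and 4 without animal 4. At day 5 the count of 17 was 6, 11, 9, 8 and 8 without animals 1, 2, 3, 4 and 7. The genes named below are called by the fit without these changes.

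Co-receptors of the surface TLRs did not pass on any day. CD14, which hands lipopolysaccharide to TLR4, had changes of 0.97, 0.88 and 0.03 at day 3, 5 and 7 (limma adjusted p of 0.0447, 0.0409 and 0.956). With scan session as a block the day 3 and day 5 values of CD14 were −0.01 and −0.11. That fit rests on the 1 pre-irradiation array of session 2, so it cannot decide the size or direction of CD14. Without each animal in turn, the values ran from 0.62 to 1.2 at day 3 and from 0.66 to 1.04 at day 5. LY96 (MD-2), the TLR4 partner that holds the lipid, had 0.10, 0.59 and 0.23. Of the factors that fold and carry TLRs, CNPY3, a chaperone of surface and endosomal receptors, rose at day 3 by 0.87 (adjusted p = 0.00253), while UNC93B1, the carrier of endosomal TLRs, gave 0.38, −0.04 and −0.52 with no call, and its day 3 value was −0.19 with session as a block. Among the proteases that cleave endosomal TLRs, LGMN rose at day 3 by 1.80 (adjusted p = 0.000406) and CTSB rose by 1.52 at day 3 and 1.13 at day 5 (adjusted p of 0.00166 and 0.00302). CD180, a TLR4 homologue without a TIR domain, rose by 1.47 at day 3 and 1.13 at day 5 (adjusted p of 0.000636 and 0.00432), and its partner LY86 (MD-1) fell at day 5 by 1.22 (adjusted p = 0.00335). Of the proteins that can act as endogenous TLR ligands, HMGB1 fell on each day, with changes of −1.44, −1.27 and −1.18 (adjusted p of 0.000388, 0.000312 and 0.00061), and S100A8 passed as higher at day 7 (1.35, adjusted p = 0.00157). The call of S100A8, the only pathway gene called higher at day 7, was lost with the animal as a block, with normexp and without animal 1, 2, 3 or 5. Its values were 1.21 to 1.61 over the animals left out, and the fit without animal 5 is also that within scan session 1.

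Downstream of the receptors, 2 of 5 adaptors tested rose at day 5: TIRAP, which bridges TLR2 and TLR4 to MYD88, by 0.80 (limma adjusted p = 0.00223, well above background on 4 of 7 pre-irradiation arrays, so that its size is not firm), and PIK3AP1 by 0.78 (adjusted p = 0.00338). MYD88, the adaptor of all TLRs but TLR3, had changes of 1.05, 0.82 and 0.19 (adjusted p of 0.0207, 0.0211 and 0.646). Of 12 kinases and ubiquitin ligases up to TAK1, 1 passed, PELI2, at day 5 (1.32, adjusted p = 0.00268), and it too was well above background on only 4 of 7 pre-irradiation arrays. TRAF3, a ubiquitin ligase of the interferon branch, fell at day 3 and day 5, with changes of −1.38 and −1.07 (adjusted p of 0.000541 and 0.000886). Of 13 transcription factors, IRF1 and NFKB2 rose at day 5, by 1.17 and 0.80 (adjusted p of 0.00084 and 0.00294).

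Of 14 negative regulators tested, 2 rose at day 3 and 3 at day 5. ATF3, a repressor of inflammatory genes, rose by 2.53 and 2.11 (limma adjusted p of 0.000394 and 0.000496) and INPP5D (SHIP-1), a lipid phosphatase, by 0.80 and 1.21 (adjusted p of 0.00476 and 0.000399), and USP25 joined them at day 5 (0.73, adjusted p = 0.00349). Among 12 targets of TLR signaling tested, 2 rose and 1 fell at day 3 and 3 rose and 1 fell at day 5. IL1B rose by 2.21 at day 3 and 1.97 at day 5 (adjusted p of 0.0021 and 0.000158) and CXCL10 by 2.99 at day 5 (adjusted p = 0.0038). CD40, a target that is also a B cell gene, fell on each day, with changes of −2.15, −2.71 and −3.14 (adjusted p of 6.22e-05, 1.76e-06 and 8.41e-07). IL6, IL12B, IFNB1 and IL1A had probes that were too dim to be tested.

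**Figure D4:**
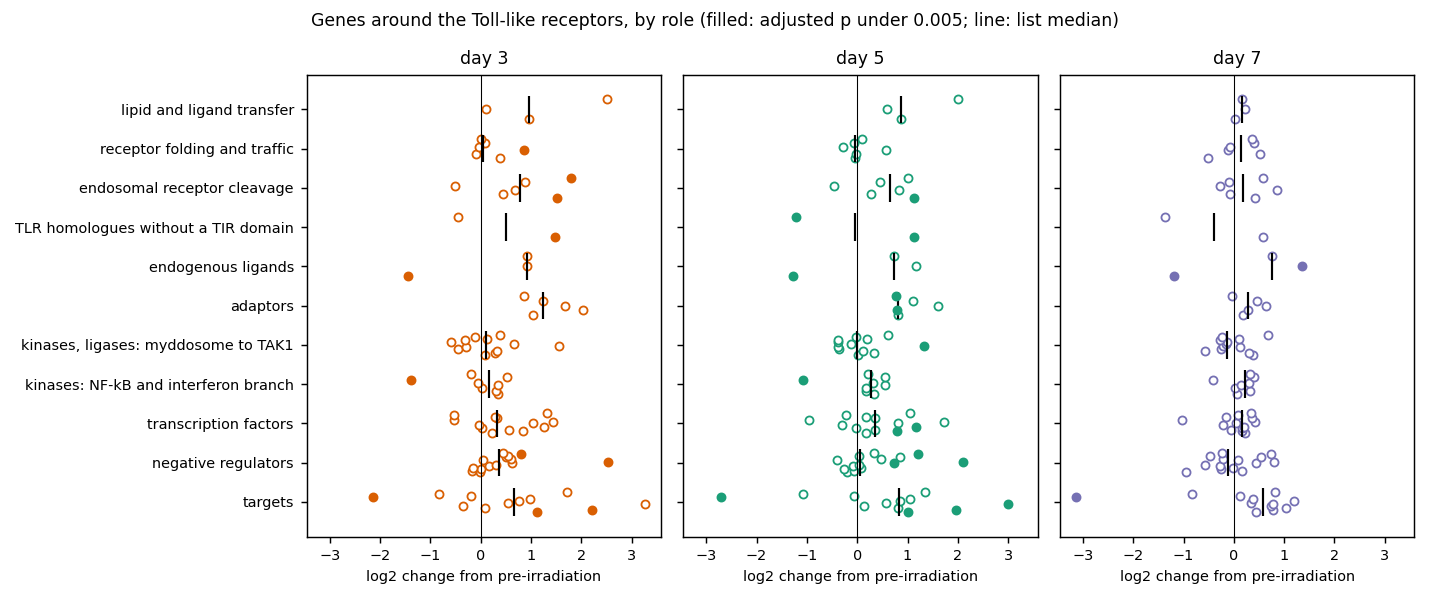
Log2 change from pre-irradiation (x axis) of the 84 genes listed by role around the Toll-like receptors, at day 3, day 5 and day 7. Each point is 1 gene, filled where the adjusted p was under 0.005, and black lines are list medians. There are 11, 17 and 3 filled points in the panels from left to right, and the target farthest to the left is CD40.

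In whole blood, fewer cells of a type and less RNA per cell cannot be told apart, so markers of the cell types that carry TLRs are given beside them. The leukocyte markers PTPRC, CORO1A, LCP1 and CD53 were all tested, with pre-irradiation means of 14.34 to 16.85, well above background on every array. Their median log2 change was 0.56, 0.44 and 0.15, and 1 of the 4, CD53, rose, at day 5 (0.75, limma adjusted p = 0.000557). Over the 24 arrays their mean level correlated with TLR8 at r = 0.872, with TLR1 at 0.858 and with TLR2 at 0.841, and after subtraction of the group means at 0.744, 0.71 and 0.68. Where TLR9 and TLR10 were lower, B cell markers were lower too: 10 of 11 tested fell on each day (median log2 change −2.92, −3.31 and −3.49), and their mean log2 level per array ran from 10.20 to 10.68 before irradiation and from 6.52 to 7.79 after it. PAX5 was too dim to be tested. Single B cell markers had changes of −5.65 (VPREB3) to −0.05 (FCER2) at day 3. Of the plasmacytoid dendritic cell markers, 6 of 10 listed symbols were tested, and CLEC4C, LILRA4 and IL3RA were not among them. Of the 6, 3 fell and 1 rose at day 3, and 2 fell at day 5 and at day 7 (median log2 changes −1.14, −1.04 and −0.52). TCF4 and SPIB, which B cells also express, fell on each day, and PACSIN1 fell at day 3 (−2.63, limma adjusted p = 0.00168). PTCRA rose at day 3 (3.06, adjusted p = 0.00405), while SHD and MAP1A did not pass on any day. Their mean level ran from 9.08 to 9.97 before irradiation and from 8.03 to 9.40 after it. Of 8 conventional dendritic cell markers tested, 2 fell on each day (medians −1.24, −0.46 and −0.43), and XCR1 was too dim. CD1C, which B cells can also express, fell on each day, with changes of −2.10, −2.54 and −2.35, CLEC9A fell at day 3, where no array was well above background, and FCER1A at day 5 and day 7. Their mean level ran from 8.55 to 9.03 before irradiation and from 7.18 to 8.93 after it, and correlated with TLR10 at 0.408 and TLR9 at 0.25 (−0.138 and −0.379 after subtraction of the group means). Over the 24 arrays the mean level of the B cell markers correlated with TLR10 at r = 0.689 and with TLR9 at 0.65, and after subtraction of the group means at 0.127 and 0.022. For the plasmacytoid dendritic cell markers the values were 0.582 with TLR9 and 0.286 with TLR10, and 0.198 and −0.526 after subtraction.

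Beside the receptors that were higher, 4 of 9 monocyte markers rose at day 3 and at day 5 and 1 at day 7, with median changes of 1.05, 0.81 and 0.87. Of 12 neutrophil markers, 3, 3 and 1 rose, with medians of 0.88, 0.89 and 0.65. Before irradiation the mean level of the neutrophil markers lay between 10.15 and 11.36 on each array. Afterwards it lay between 11.33 and 12.74 (day 3), 11.16 and 12.48 (day 5), and 10.48 and 12.59 (day 7). Over the 24 arrays the neutrophil level correlated with TLR1 at r = 0.874, with TLR8 at 0.851 and with TLR4 probe 2 at 0.829, and after subtraction of the group means at 0.817, 0.813 and 0.729. For TLR5, TLR4 probe 3 and TLR6 it correlated at 0.743, 0.725 and 0.604, and after subtraction at 0.552, 0.531 and 0.404. With the monocyte level TLR1, TLR8 and TLR4 probe 2 correlated at 0.697, 0.62 and 0.489, and TLR6, TLR4 probe 3 and TLR5 at 0.513, 0.464 and 0.439. After subtraction these were 0.311, 0.22 and 0.032, and 0.107, −0.285 and −0.141. TLR2 correlated with the neutrophil level at 0.657 and with the monocyte level at 0.422, both below its 0.841 with the leukocyte markers, and after subtraction at 0.62 and −0.103. Erythroid markers fell (8, 9 and 7 of 9), and all 6 platelet markers rose at day 3. The part of these cell types in the TLR changes was not tested.

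**Figure D5:**
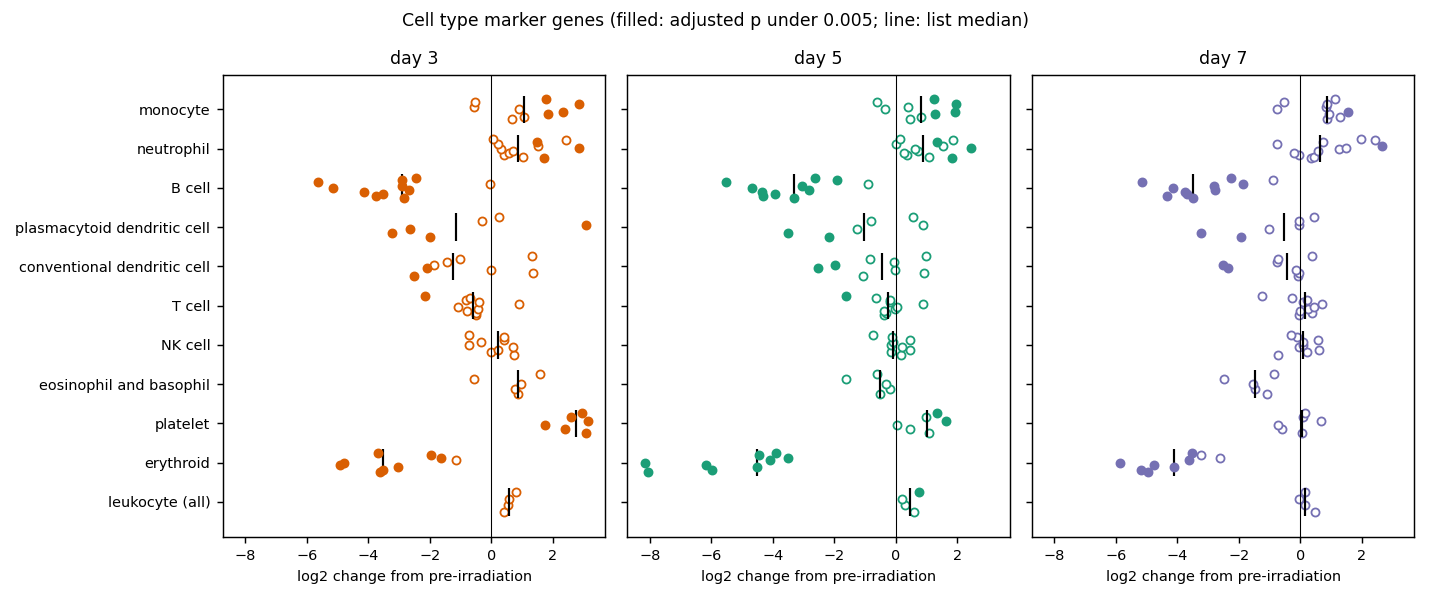
Log2 change from pre-irradiation (x axis) of cell type marker genes, by list, at day 3, day 5 and day 7. Each point is 1 gene, filled where the adjusted p was under 0.005, and black lines are list medians. B cell and erythroid medians lie at −2.92 or below on each day, and the monocyte and neutrophil medians lie between 0.65 and 1.05.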

How the data were processed

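Scanner output was analysed for 24 one-colour arrays of 7 animals on 6 slides. The authors' deposited files give, per spot, an intensity (processed signal: local background subtracted, gradients removed, low values replaced by a surrogate) from Agilent Feature Extraction, version 10.7 by the labels and 12.0.2.2 by the file headers, and flags for background, saturation and outliers. The deposited series matrix holds the same signal on a log2 scale, each array offset by a constant of its own (column medians 7.36 to 7.7), and its 18497 rows served as an alternative. A human array is named in the study's methods, while labels and headers give a rhesus design.

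Here spots flagged as outliers were left out, the log2 processed signal was averaged per probe, and arrays were scaled by a single offset each, the median of their differences from a reference array (animal 2 before irradiation) (shifts of −1.27 to 0.87, and −2.03 for animal 2 at day 7). Of 43603 probes, 23054 were named by the files, 898 by accession against RefSeq and 19651 had no symbol. Probes well above background on at least 4 arrays (27138) were tested with limma 3.58.1 in R 4.3.3 (statmod 1.5.0), each day against the 7 pre-irradiation arrays in its own fit, two-sided, at a Benjamini-Hochberg adjusted p under 0.005 (0.05 for the sexes). The test was tried on simulated data. Tables and plots used Python 3.11.15, numpy 2.4.6, pandas 2.3.3 and matplotlib 3.10.9. Multi-probe genes in the lists were read by the brightest tested probe, and all TLR probes are reported. Named are every TLR probe, CD14, LY96, MYD88 and UNC93B1, from each role list up to 3 changed genes with the largest absolute change, and the 3 genes most alike each TLR. The members and lists were chosen with earlier results of these data known. Listed symbols include synonyms, and genes such as IRAK1, IRAK3, PELI1 and CCL4 were not matched to a probe by name.

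Whether replicate numbers mark animals was tested on residuals from the group means: same-numbered arrays correlated at 0.133 to 0.409 (day 3), 0.171 to 0.458 (day 5) and 0.129 to 0.44 (day 7) with pre-irradiation, and medians for different numbers were −0.054, −0.068 and −0.052. At day 7 each animal's pair also shared a slide. Alternatives were the 75th percentile, quantile normalization, normexp (offset 50), other filters, all groups in 1 fit, animal, session and slide blocks, the matrix values and leaving out each animal. The pathway genes were read under the alternatives after the data were seen, as were the session blocks for day 3 and day 5.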

Additional observations from a re-analysis of the deposited data

Results flagged for a closer look

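In 4 of the 44 groups of TLR values tested, 1 sample lay apart from the rest of its group by Dixon's test at the 95% level, which chance alone does in about 1 of 20 groups. TLR3 in animal 2 at day 3 read 2.91, below the 6.2 to 6.74 of the other 3 animals, and was not well above background. TLR6 in animal 6 at day 5 read 10.85, below the other 5 at 11.34 to 11.59. TLR9 probe 1 in animal 2 at day 5 read 8.39, above the others at 5.05 to 6.15. TLR10 in animal 1 at day 5 read 8.98, above the others at 7.62 to 7.80. Of these, 2 concern animal 2, whose day 3 and day 5 arrays had scaling shifts of −0.97 and −1.27, each the lowest of its group. TLR9 probe 2, which was not tested, was well above background on 1 of 7 pre-irradiation arrays and 2 of 7 at day 7.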

How the results depend on the processing

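Of 591 values of the 11 TLR probes under the alternatives, 510 kept direction and side of the threshold, 59 lost a call, 21 gained one and 1 reversed. The count of changed TLR probes at day 3, 5 and 7 (1, 5 and 3) became 0, 0 and 0 with normexp correction. It was 2 at day 3 with all groups in 1 fit, both higher (TLR1 and TLR4 probe 3), with TLR9 probe 1 lost, and 0 at day 3 and day 5 with scan session as a block or within session 2, and 1 at day 7 with no filter on dim probes, with TLR9 and TLR10 lost. TLR9 was also lost at day 7 with all groups in 1 fit and with session as a block. Without each animal in turn it ran from 0 to 3, 2 to 7 and 0 to 2. For the pathway genes (11, 17 and 3) the counts were 1, 1 and 1 with normexp and 0 at day 3 and day 5 with session as a block or within session 2. They were 18 and 5 at day 3 and day 7 with all groups in 1 fit, 2 at day 3 with the replicate block, 9 at day 5 with no filter and 7 at day 7 with a filter of every array of 1 group. Without each animal they ran from 4 to 11, 6 to 13 and 2 to 4. With the replicate block 1, 5 and 3 TLR probes passed, with TLR1 and TLR6 lost and TLR3, dim before irradiation, and TLR10 gained at day 5 and TLR4 probe 3 lost and TLR3 gained at day 7. Counts between days and between sexes were 0 under each alternative run. Some uncalled values reversed: CD14, at 0.97 and 0.88, to −0.01 (day 3) and −0.11 (day 5) with session as a block or within session 2, LY96 at day 3 to −0.06 with the replicate block, UNC93B1 at day 3 to −0.19 with session as a block or within session 2 and at day 5 to 0.07, 0.05 and 0.01 with quantile normalization, the replicate block and the matrix values, CNPY3 at day 7 to 0.04 and 0.05 and PIK3AP1 at day 7 to 0.27 and 0.13 with quantile normalization and normexp. Without each animal, day 7 values ran from −0.07 to 0.30 for TLR4 probe 1, −0.19 to 0.21 for CD14, −0.24 to 0.03 for CNPY3, −0.09 to 0.11 for PIK3AP1 and −0.02 to 0.24 for NFKB2, day 3 values from −0.08 to 0.26 for LY96 and day 5 values from −0.17 to 0.07 for UNC93B1. For day 3 and day 5 against pre-irradiation, session as a block and within session 2 rest on the same 1 pre-irradiation array. The causes were not tested. Day 7 against pre-irradiation within session 2 was not run, with 1 array in each group. Signal over background limits TLR3, TLR7 and TLR9.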
